A study of Mus musculus with 12 samples.

Results

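The circadian clock genes followed here are Per1, Per2, Per3, Dbp, Tef, Nr1d1, Nr1d2, Arntl, Clock and Npas2, read in subcutaneous tumours of the mouse lung cancer line 393P. They were selected by symbol as core clock and output genes of both phases, and all 10 were found among 45777 genes of the count table. They were put together after Per1 was seen to be higher in control tumours with MAVS. The values of that comparison, and of the averages and the interaction that contain it, therefore chose the set and are given as a description without a test. All 10 genes passed the filter on low counts, as did 17885 genes in all.

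RNA came from 12 tumours in 4 groups of 3 libraries, 2 genotypes of the injected cells by 2 treatments. MAVS is the mitochondrial adaptor of cytosolic RNA sensors, and by the genotype labels the cells were MAVS knockout or MAVS reconstituted. The knockout groups carry Luc in their sample titles, which the sources used here do not explain. All hosts were male 129-Elite mice (129S2/SvPasCrl), 8 weeks old at injection, and their own Mavs genotype is not labelled. Control tumours carry the treatment label Control and Veh in their titles, and no drug or dose is labelled for them. The inhibitor groups received 5 mg/kg BAY-1217389, an inhibitor of the mitotic kinase MPS1, in 2 doses a day over 2 days, and tumours were collected the day after. The labels do not say how many clones gave each genotype, and the effect of MAVS and of anything else in which the injected cells differ cannot be told apart. At what time of day tumours were collected, and whether all groups were collected at the same time, the sources used here do not say. The labels do not say that replicates came from separate animals, so the tests measure the spread between these samples.

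The clock is a transcriptional feedback loop. Arntl (BMAL1) pairs with Clock or its relative Npas2, binds E-boxes, and drives the Per and Cry genes, whose proteins return to block the pair. Nr1d1 and Nr1d2 encode the REV-ERB repressors, which act on Arntl, and Dbp and Tef encode PAR bZIP factors that bind D-boxes in output genes. Genes driven through E-boxes and Arntl are known to peak at opposite times of day in most tissues. Per1, and to a lesser degree Per2, are also known as genes that respond within the hour to glucocorticoid and cAMP signals.

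Total counts were 52983715 to 69108411 per library. Mavs lay at 39.4 to 45.7 CPM (counts scaled to library size with TMM factors) in the 6 knockout libraries and at 50.0 to 85.0 CPM in the 6 reconstituted libraries. The epithelial markers of the tumour cells (Epcam, Krt8, Krt18, Krt19, Cdh1) summed to 4730 to 7590 CPM in every library. Reconstituted inhibitor replicate 1 stood apart, with 2380 CPM of skeletal muscle markers against 1.45 to 688 CPM elsewhere, and 2100 CPM of fibroblast and pericyte markers against 5020 to 11000 CPM. For Dbp, Clock and Npas2, differences that moved by over 1.5 times without that library are also given without it. For members whose differences changed sign, ranges with single libraries left out are given at the end. Differences of genes outside the set are not given without it. In pieces of tumour, fewer cells of a type and less RNA per cell cannot be told apart.

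Upstream sequence is shown for 3 members that carry the clock's own binding motifs, 1 whose level went with MAVS (Per1) and 2 whose genotype groups overlapped (Per3 and Tef). Each run is the 250 bases before a RefSeq start on GRCm38.p6, 5′ to 3′ on the gene's strand, with E-boxes (CACGTG) and D-boxes (TTATGTAA or TTATGCAA, on either strand) in capitals. The Per1 run lies at chr11:69098699-69098948 on the plus strand, the Per3 run at chr4:151044666-151044915 on the minus strand, and the Tef run at chr15:81811164-81811413 on the plus strand.
Per1: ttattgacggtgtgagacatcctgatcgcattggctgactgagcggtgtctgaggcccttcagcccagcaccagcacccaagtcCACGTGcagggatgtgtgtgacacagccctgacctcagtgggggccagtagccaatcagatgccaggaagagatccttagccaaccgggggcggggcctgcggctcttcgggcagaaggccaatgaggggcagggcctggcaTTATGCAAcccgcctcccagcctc
Per3: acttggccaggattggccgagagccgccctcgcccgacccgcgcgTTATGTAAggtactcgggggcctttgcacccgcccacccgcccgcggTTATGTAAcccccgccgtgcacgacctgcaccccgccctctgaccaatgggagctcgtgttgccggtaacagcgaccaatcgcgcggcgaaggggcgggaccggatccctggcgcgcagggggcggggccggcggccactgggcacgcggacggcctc
Tef: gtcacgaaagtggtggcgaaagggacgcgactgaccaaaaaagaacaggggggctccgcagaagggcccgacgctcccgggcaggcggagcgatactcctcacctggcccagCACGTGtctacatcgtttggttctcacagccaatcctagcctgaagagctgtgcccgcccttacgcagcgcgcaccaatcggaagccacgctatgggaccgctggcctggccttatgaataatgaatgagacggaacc
Windows of 300 bases (250 before to 50 after a start) were held for 9 of the 10 members, with 14 windows in all, and not for Per2. An E-box was found for 2 of these 9 genes, Per1 (166 to 161 bases before the start) and Tef, against 8.09% of 27025 genes. A D-box of the spellings TTATGTAA, TTACATAA, TTATGCAA or TTGCATAA was found for 2 of the 9, Per1 (24 to 17 bases before the start) and Per3 (2 matches), against 1.98% of genes. The cAMP response element half-site TGACG, searched on both strands, was found for 1 of the 9, Per1, in both of its windows, against 23.0% of genes. The nuclear receptor half-site AGGTCA, also searched on both strands, was found for Per1, Nr1d2, Arntl and Clock, 4 of the 9, against 18.1%. Members had more windows per gene than all genes had (32851 windows). By window, these motifs were found in 3, 2, 2 and 4 of 14, against 7.15%, 1.66%, 20.8% and 16.3% of all windows, in the same order. No match overlapped a match of another motif. These matches describe letters only, and Per1 and Tef share an E-box while their levels below differ in pattern.

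Per1 (gene ID 18626, chromosome 11, 69095108 to 69109965 on GRCm38.p6), a repressor of the loop, had higher values in reconstituted than in knockout tumours in both treatments. Its libraries held 40.3, 44.4 and 63.7 CPM in knockout controls and 67.8, 69.9 and 66.7 CPM under the inhibitor. In reconstituted tumours they held 108, 134 and 131 CPM in controls and 96.7, 112 and 130 CPM under the inhibitor. Every reconstituted library thus lay above every knockout library. The same full separation upward was found in 1.33% of all genes tested. It includes the control libraries that chose the set, so that share lends Per1 no support. Under the inhibitor alone, libraries did not overlap upward for 10.9% of all genes. Group means were 49.5 ± 12.5 and 68.1 ± 1.66 CPM in knockout and 124 ± 14.3 and 113 ± 16.6 CPM in reconstituted tumours (SD, n = 3 each, controls first). In controls, the comparison that chose the set, the fitted log2 difference was 1.33 ± 0.17 (SE), or 1.56 without knockout control replicate 3, the highest of its group. Under the inhibitor, in libraries outside that comparison, it was 0.73 ± 0.16 (SE, interval of 95% from 0.37 to 1.09). This did not pass after adjustment over all genes (edgeR adjusted p = 0.0704), nor did it in 17 of 20 alternative fits. Adjusted p was 0.00254 with DESeq2, 0.0476 without knockout control replicate 3 and 0.0433 without reconstituted inhibitor replicate 3, and up to 0.277 elsewhere.

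Per2 (gene ID 18627, chromosome 1, 91415977 to 91459351), the partner repressor, showed the same order of genotypes at a smaller size. Knockout libraries held 7.22, 11.2 and 10.9 CPM in controls and 12.7, 10.4 and 7.54 CPM under the inhibitor. Reconstituted libraries held 20, 13.7 and 19.9 CPM in controls and 13.2, 14.9 and 15.2 CPM under the inhibitor. All 6 reconstituted libraries lay above all 6 knockout libraries, as in 1.33% of all genes tested. The closest pair was only 12.7 against 13.2 CPM. This separation too includes the control libraries that chose the set, so it lends Per2 no support. The log2 difference was 0.87 ± 0.22 (SE) in controls and 0.50 ± 0.22 (SE) under the inhibitor, where it did not pass (edgeR adjusted p = 0.247). The latter was 0.32 without knockout inhibitor replicate 3.

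Per3 (gene ID 18628, chromosome 4, 150997018 to 151044707), the third family member, did not follow them. Its knockout libraries held 14.9, 22.4 and 19.0 CPM in controls and 21.9, 22.3 and 14.7 CPM under the inhibitor, and its reconstituted libraries 19.7, 17.3, 21.4 and 16.5, 19.8, 20.2 CPM in the same order. The groups overlapped throughout. Under the inhibitor the MAVS difference of Per3 was -0.06 on the log2 scale with an interval of 95% from -0.46 to 0.34, and the Per1 estimate of 0.73 lies outside it. The 2 genes were not tested against each other. Per3 overlaps Uts2 on the other strand, a gene with 8 to 42 counts per library.

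Ratios within a library show the split of the Per family without any scaling between libraries. The log2 ratio of Per1 to Per3 counts was 0.99 to 1.74 in knockout controls and 1.63 to 2.18 in knockout inhibitor libraries. It was 2.45 to 2.95 and 2.49 to 2.68 in the reconstituted controls and inhibitor libraries. For Per2 to Per3 the 4 ranges were -1.05 to -0.80, -1.1 to -0.78, -0.34 to 0.03 and -0.41 to -0.32. Both ratios separated the genotypes in full. The ranges include the control libraries that chose the set, so this separation is a description and lends the split no support. Such ratios are of counts and not per length, so only their differences between groups are read.

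**Figure D1:**
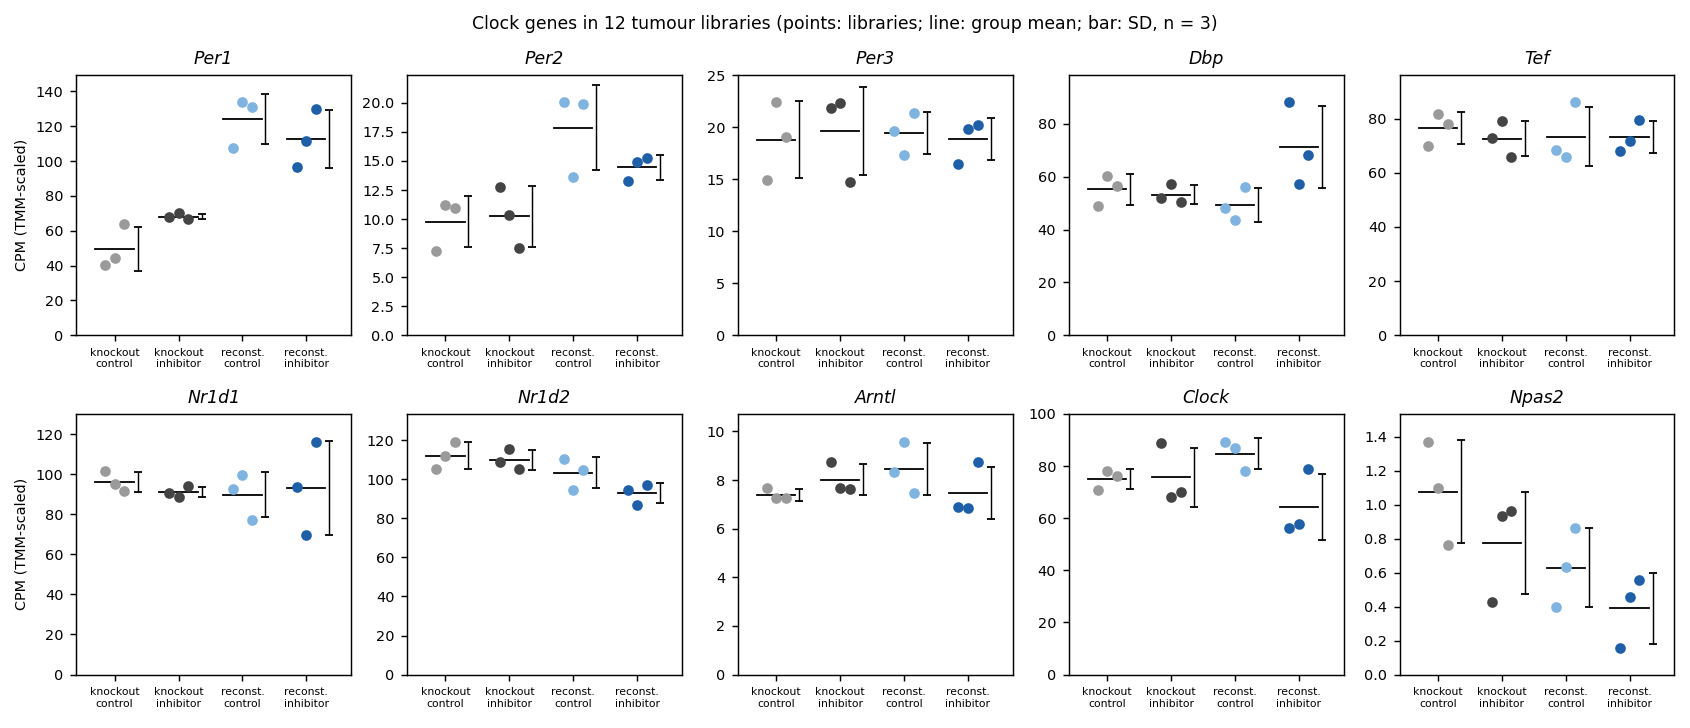
CPM of each of the 10 clock genes by group, with 1 point per library, a line at the group mean and a bar of 1 SD (n = 3). Per1 and Per2 sit higher in all 6 reconstituted libraries (Per1 from 96.7 CPM) than in the knockout libraries (Per1 up to 69.9 CPM), while Per3, Tef, Nr1d1 and Arntl overlap between groups.

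**Figure D2:**
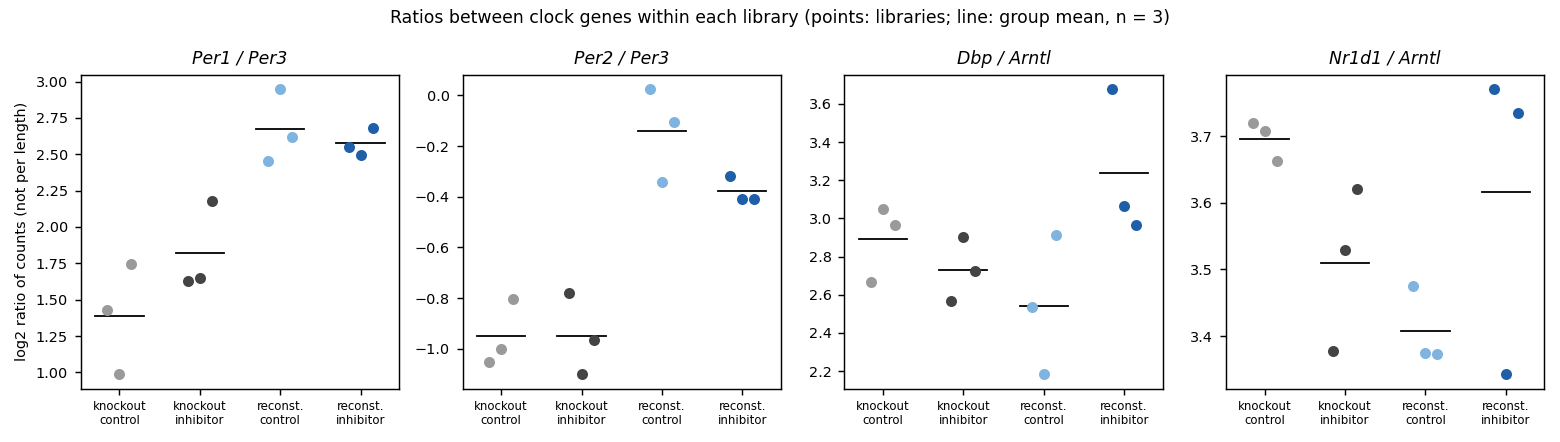
Log2 ratios of counts between pairs of clock genes in each library, by group, with a line at the group mean. Per1 to Per3 and Per2 to Per3 separate the genotypes, whereas Dbp to Arntl and Nr1d1 to Arntl overlap between the genotypes over the 12 libraries.

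The output factor Dbp had its highest values in reconstituted inhibitor tumours. Dbp (gene ID 13170, chromosome 7, 45705100 to 45710203) held 48.8, 60.2 and 56.7 CPM in knockout controls, 51.8, 57.3 and 50.4 CPM in knockout inhibitor libraries and 48.2, 43.5 and 56.2 CPM in reconstituted controls. The reconstituted inhibitor libraries held 88.1, 57.3 and 68.2 CPM, all above the reconstituted controls, the highest value being that of the library rich in muscle markers. The inhibitor effect was 0.53 ± 0.15 (SE) in reconstituted tumours, which did not pass (edgeR adjusted p = 0.0729), and -0.05 ± 0.15 (SE) in knockout tumours. Without reconstituted inhibitor replicate 1 the former was 0.35 (edgeR adjusted p = 0.261). Adjusted p was 0.0161 with DESeq2 and 0.031 without reconstituted inhibitor replicate 3. The MAVS difference of Dbp under the inhibitor, 0.42 ± 0.15 (SE, edgeR adjusted p = 0.173) with overlapping groups, was 0.24 without that replicate 1 (adjusted p = 0.506). The interaction of Dbp, 0.58 ± 0.21 (SE), holds the comparison that chose the set and is given without a test, so the difference between genotypes in the inhibitor effect was not tested. The last 741 bases of Dbp overlap Sphk2 on the other strand, and the sources used here do not say whether the counting used strand. Sphk2 differed by 0.11 ± 0.08 (SE) in the same comparison.

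Tef, the other PAR bZIP factor, was the most even member. Tef (gene ID 21685, chromosome 15, 81802673 to 81826863) ranged from 65.7 to 86.0 CPM over all 12 libraries, a span of 1.31-fold, and both of these ends were reconstituted controls. Its MAVS difference under the inhibitor was 0.01 (interval of 95% from -0.24 to 0.27) and its inhibitor effect in reconstituted tumours was -0.0047 (-0.26 to 0.25) on the log2 scale. Changes of Per1's size under the inhibitor lie outside these intervals.

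Of the REV-ERB genes, Nr1d1 overlapped between groups, and Nr1d2 separated by genotype under the inhibitor but not in controls. Nr1d1 (gene ID 217166, chromosome 11, 98767932 to 98775377) held 77.3 to 101 CPM in every library except 2 of the reconstituted inhibitor group, at 69.5 and 116 CPM, beside 93.9 CPM in the third. No pair of groups separated, and its MAVS difference under the inhibitor was 0.03 ± 0.16 (SE). The last 1075 bases of Nr1d1 overlap Thra on the other strand, whose difference there was 0.20 ± 0.08 (SE). Nr1d2 (gene ID 353187, chromosome 14, 18204056 to 18239106) held 109, 115 and 105 CPM in knockout inhibitor libraries and 94.7, 87.0 and 97.1 CPM in reconstituted inhibitor libraries. Those groups did not overlap, as was found in this direction for 9.77% of all genes. The difference of -0.24 ± 0.08 (SE) did not pass (edgeR adjusted p = 0.154), and in controls it was -0.12 ± 0.08 (SE) with overlapping groups.

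Among the activators, Arntl and Clock had their lowest values in 2 libraries of the reconstituted inhibitor group. Clock (gene ID 12753, chromosome 5, 76209868 to 76305603) held 56.3, 57.8 and 79.0 CPM there, against 89.3, 87.0 and 78.0 CPM in reconstituted controls, so the groups overlapped by 1 library. The difference of -0.40 ± 0.14 (SE) did not pass (edgeR adjusted p = 0.0881). Without reconstituted inhibitor replicate 3, the highest of that group, it was -0.57 (adjusted p = 0.00741), with DESeq2 it was -0.40 (adjusted p = 0.046), and without replicate 1 of that group it was -0.31 (adjusted p = 0.296). The MAVS difference of Clock under the inhibitor was -0.23 ± 0.14 (SE, adjusted p = 0.352), and -0.41 without reconstituted inhibitor replicate 3 (adjusted p = 0.0433), -0.15 without replicate 1 (adjusted p = 0.736). Knockout tumours held 70.7 to 78.2 CPM of Clock in controls and 68.1 to 88.7 CPM under the inhibitor. Arntl (gene ID 11865, chromosome 7, 113178471 to 113314126) followed the same libraries, with 6.88, 6.85 and 8.72 CPM in the reconstituted inhibitor group and 7.25 to 9.58 CPM in the 9 others. Its difference there was -0.18 ± 0.14 (SE, edgeR adjusted p = 0.392), and -0.076 without reconstituted control replicate 2, -0.12 without reconstituted inhibitor replicate 2 and -0.30 without reconstituted inhibitor replicate 3.

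Npas2 (gene ID 18143, chromosome 1, 39193702 to 39363240), which can stand in for Clock, was scarce, with 8 to 72 counts per library. Its levels were 1.37, 1.1 and 0.764 CPM in knockout controls, 0.430, 0.934 and 0.960 CPM in knockout inhibitor libraries, 0.398, 0.633 and 0.860 CPM in reconstituted controls and 0.158, 0.454 and 0.555 CPM in reconstituted inhibitor libraries. All group pairs with a shared genotype or treatment overlapped. The MAVS difference under the inhibitor was -0.98 ± 0.49 (SE, interval of 95% from -2.04 to 0.09, edgeR adjusted p = 0.285), and -0.61 without reconstituted inhibitor replicate 1 (adjusted p = 0.626). The inhibitor effect in reconstituted tumours was -0.68 ± 0.49 (SE, adjusted p = 0.344), and -0.32 without that library (adjusted p = 0.713). At this depth a difference of that size was not separable from the spread.

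Counted over the set, 0 of 10 members were called at an adjusted p below 0.05 for the MAVS effect under the inhibitor, where 0.649% of all genes were called (edgeR). At an unadjusted p below 0.05 there were 4, Per1, Per2 and Dbp with higher and Nr1d2 with lower values in reconstituted tumours, against 19.7% of all genes. DESeq2 called 1 (Per1), against 6.85% of all genes, and limma-voom 0, against 0.732%. Libraries did not overlap upward for 2 members and downward for 1, against 10.9% and 9.77% of all genes. The median log2 difference was -0.02 over the 10 members and 0.0096 over all genes. In controls 2 members, Per1 and Per2, did not overlap upward (15.6% of all genes did) and the median of the 10 was -0.0064 against 0.003 over all genes.

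For the MPS1 inhibitor effect, 0 of 10 members were called in knockout tumours, in reconstituted tumours and averaged over genotypes (edgeR), and in each the share over all genes was 0%. At an unadjusted p below 0.05 there were 1 (Per1), 2 (Dbp and Clock) and 1 (Dbp), against 1.71%, 32.6% and 7.82% of all genes. DESeq2 called 0, 2 (Dbp and Clock) and 0, against 0.0168%, 20.2% and 0.00559% of all genes, so the count in reconstituted tumours was at the share over all genes. With limma-voom 0 members were called in each, against 0.00559%, 0% and 0%. Per1 was 0.46 ± 0.16 (SE) higher under the inhibitor in knockout tumours, with non-overlapping libraries as in 4.47% of all genes (edgeR adjusted p = 1.00), and -0.14 ± 0.16 (SE) in reconstituted tumours (adjusted p = 0.575). Over the alternative fits the Per1 difference in reconstituted tumours ran from -0.255 to -0.0418. These inhibitor comparisons use the control libraries that chose the set. Dbp was the only member whose libraries did not overlap in reconstituted tumours, against 14.7% of all genes upward and 14.8% downward. The MAVS effect under the inhibitor and the inhibitor effect in reconstituted tumours share the 3 reconstituted inhibitor libraries.

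**Figure D3:**
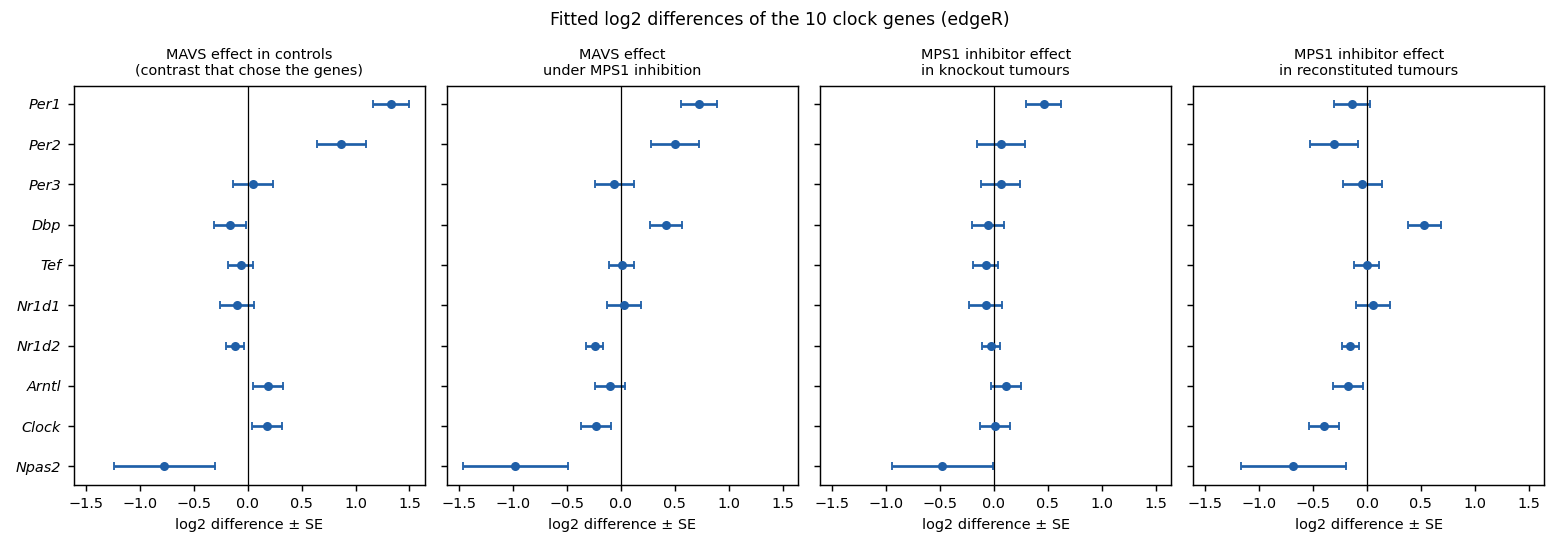
Fitted log2 differences with SE of the 10 clock genes in 4 comparisons. Per1 and Per2 lie right of 0 for both MAVS effects (Per1 at 1.33 and 0.73), and Dbp at 0.53 and Clock at -0.40 stand out for the inhibitor effect in reconstituted tumours without passing the test.

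Members that are known to run together did so across libraries only in part. After subtracting group means, Pearson's r over the 12 libraries was 0.81 for Arntl with Clock, 0.79 for Per3 with Tef, 0.89 for Per2 with Per3 and 0.27 for Per1 with Per2. For Dbp with Arntl, which oppose each other in a running clock, it was -0.41. For Nr1d1, which encodes a repressor of Arntl, it was 0.76 with Arntl and 0.15 with Nr1d2. For Per3 with Dbp it was 0.25, and only some of the pairs are given here. These are descriptions over libraries that share groups and scaling. The log2 ratio of Dbp to Arntl was 2.66 to 3.05 in knockout controls, 2.57 to 2.90 in knockout inhibitor libraries, 2.18 to 2.91 in reconstituted controls and 2.97 to 3.68 in reconstituted inhibitor libraries. The 3 reconstituted inhibitor libraries lay above the 3 reconstituted controls, by 2.97 against 2.91 at the closest. Nr1d1 to Arntl spanned 3.34 to 3.77 over all 12, with 3.66 to 3.72 in knockout controls above 3.37 to 3.47 in reconstituted controls.

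A list of 18 other clock genes (second repressors, ROR activators, kinases and ligases of the loop, and outputs) was all tested, and 0 were called in any of the 4 tested comparisons (edgeR). At an unadjusted p below 0.05 the counts were 4 for the MAVS effect under the inhibitor, 1 and 1 for the inhibitor effect in knockout and reconstituted tumours and 0 for its average, against 19.7%, 1.71%, 32.6% and 7.82% of all genes. DESeq2 and limma-voom also called 0 in each, and edgeR called 2 for the inhibitor effect in reconstituted tumours without reconstituted inhibitor replicate 3, where it called 31.0% of all genes. The cryptochrome genes, whose proteins partner the Per proteins, differed little by MAVS: Cry1 by 0.16 ± 0.13 (SE) in controls and 0.07 ± 0.13 (SE) under the inhibitor, and Cry2 by -0.0039 ± 0.13 and -0.17 ± 0.13 (SE). Of the 18, 10 had positive values under the inhibitor, against 9147 of 17885 genes, with a median of 0.01 against 0.0096 over all genes. The values of largest size were those of Rorb (-1.22 ± 0.52, SE, adjusted p = 0.235) and Hlf (-0.93 ± 0.68, SE, adjusted p = 0.442), both with 5 to 53 counts per library. For the inhibitor effect they were those of Arntl2 (-0.49) and Bhlhe40 (-0.44) in knockout tumours, of Rorb (-1.01) and Fbxl21 (-0.45) in reconstituted tumours and of Rorb (-0.57) and Usp2 (0.33) on average, none passing.

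Bhlhe40, a repressor of E-box genes, had its own pattern. It held 318, 369 and 254 CPM in knockout controls, 221, 244 and 228 CPM in knockout inhibitor libraries, 212, 194 and 188 CPM in reconstituted controls and 267, 201 and 227 CPM in reconstituted inhibitor libraries. Knockout controls lay above the other groups except for 1 library of 267 CPM. Bhlhe40 was singled out after its values were seen.

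The genes whose levels were most like those of Per1 were sought among 12004 genes over the 12 libraries. They were Brd2 (Pearson's r = 0.96), AA986860 (0.96), Tob2 (0.95), Depdc7 (0.95) and Tsc22d3 (0.95), and after subtracting group means r was 0.61, 0.91, 0.86, 0.82 and 0.80. For Dbp they were Aifm2 (0.95), Trib3 (0.94), Abhd16a (0.93), Amz2 (0.93) and Bloc1s6 (0.92). For Arntl they were Napg (0.90), Hmga2 (0.90), Ppp4r1 (0.88), Gatad2a (0.88) and R3hdm1 (0.87). No other clock gene was among these 15.

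Tsc22d3 (GILZ), known as a glucocorticoid-induced gene, also belongs to a list of 16 genes known for rapid induction by hormone, cAMP or growth signals. It held 158, 177 and 219 CPM in knockout controls, 223, 231 and 253 CPM in knockout inhibitor libraries, 293, 389 and 414 CPM in reconstituted controls and 427, 398 and 458 CPM in reconstituted inhibitor libraries. As for Per1, all reconstituted libraries were above all knockout libraries, which was found in 1.33% of all genes tested. Under the inhibitor Tsc22d3 was higher by 0.86 ± 0.14 (SE, edgeR adjusted p = 0.0316) and Errfi1, a feedback inhibitor of EGF receptor signalling, lower by 0.79 (log2 -0.79 ± 0.12, SE, adjusted p = 0.0268). These were the 2 of 16 that passed, against 0.649% of all genes. DESeq2 called 5, against 6.85% of all genes, and limma-voom 2, against 0.732%. Tsc22d3 and Errfi1 each missed the threshold when any 1 of the knockout inhibitor replicates was left out, and without reconstituted inhibitor replicate 1, with adjusted p values of 0.112 to 0.183 and 0.0943 for Tsc22d3 and 0.0929 to 0.158 and 0.0653 for Errfi1.

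The other genes of that list did not pass in the MAVS comparison under the inhibitor. Further glucocorticoid-responsive genes had differences of 0.54 ± 0.16 (SE) for Fkbp5 (adjusted p = 0.128), 0.40 ± 0.11 (SE) for Sgk1 (0.106 adjusted), 0.09 ± 0.17 (SE) for Klf9 and 0.0038 ± 0.75 (SE) for Zbtb16. Dusp1, of the same list, had means of 66.4 CPM in knockout and 70.1 CPM in reconstituted inhibitor libraries, and of 66.3 and 56.3 CPM in controls. The cAMP-responsive Sik1 had 0.51 ± 0.19 (SE, adjusted p = 0.178) and Crem 0.78 ± 0.26 (SE, adjusted p = 0.15). The early growth-response genes Fos (0.43), Fosb (-0.08) and Egr1 (-0.35) had SEs of 0.38 to 0.59. Each was highest of its group in reconstituted inhibitor replicate 1, at 11.3, 27.5 and 58.2 CPM, against at most 6.08, 13.4 and 29.0 CPM. For these genes replicate 1 was also the highest of every other group. Egr1, for instance, held 67.3, 63.6 and 53.4 CPM in replicate 1 of knockout controls, knockout inhibitor and reconstituted controls. In all 12 of 16 were positive, against 9147 of 17885 genes, with a median of 0.24 against 0.0096 over all genes. Of the 16, 5 did not overlap upward and 1 downward, against 10.9% and 9.77% of all genes. For the inhibitor effect 0 of the 16 were called, with 1, 3 and 2 at an unadjusted p below 0.05 in knockout tumours, in reconstituted tumours and averaged, against 1.71%, 32.6% and 7.82% of all genes. In reconstituted tumours DESeq2 called 3, against 20.2% of all genes, and edgeR 4 without reconstituted inhibitor replicate 3, against 31.0%. DESeq2 called 0 in the other comparisons and limma-voom 0 in each. The values of largest size were Nr4a3 (0.48) and Tsc22d3 (0.35) in knockout tumours, Crem (0.80) and Errfi1 (-0.50) in reconstituted tumours and Crem (0.32) and Errfi1 (-0.30) on average.

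**Figure D4:**
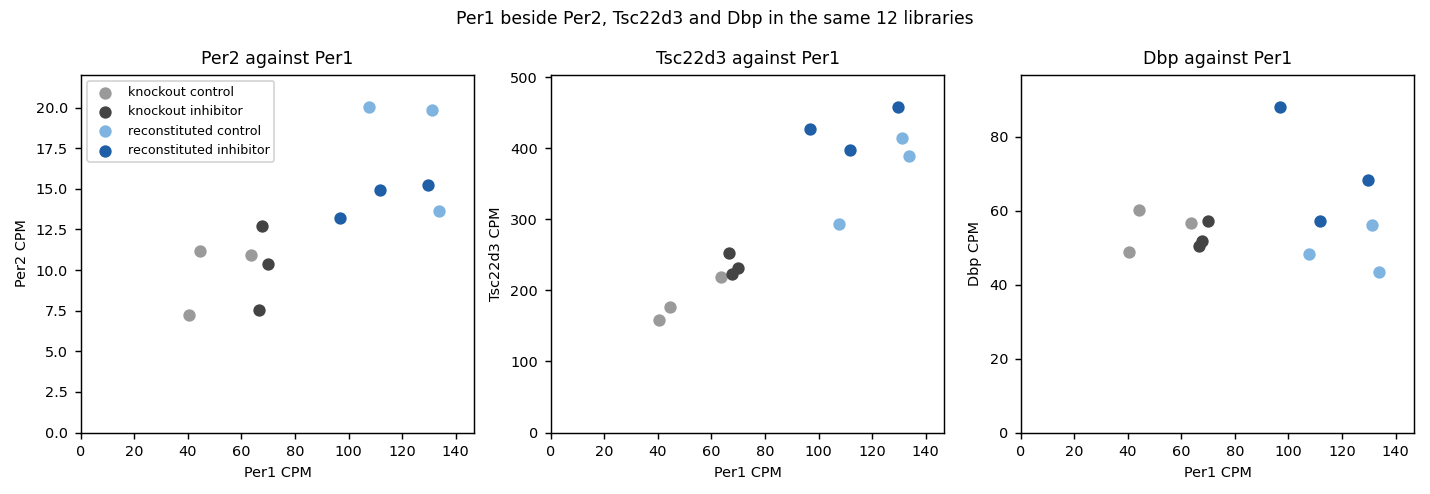
CPM of Per2, Tsc22d3 and Dbp against CPM of Per1 in the 12 libraries, coloured by group. Per2 and Tsc22d3 are higher where Per1 is higher (r = 0.79 and 0.95 on the log2 scale). After subtracting group means r is 0.27 for Per2 and 0.80 for Tsc22d3. Dbp is highest, at 88.1 CPM, in the reconstituted inhibitor library with the lowest Per1 of its genotype.

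**Figure D5:**
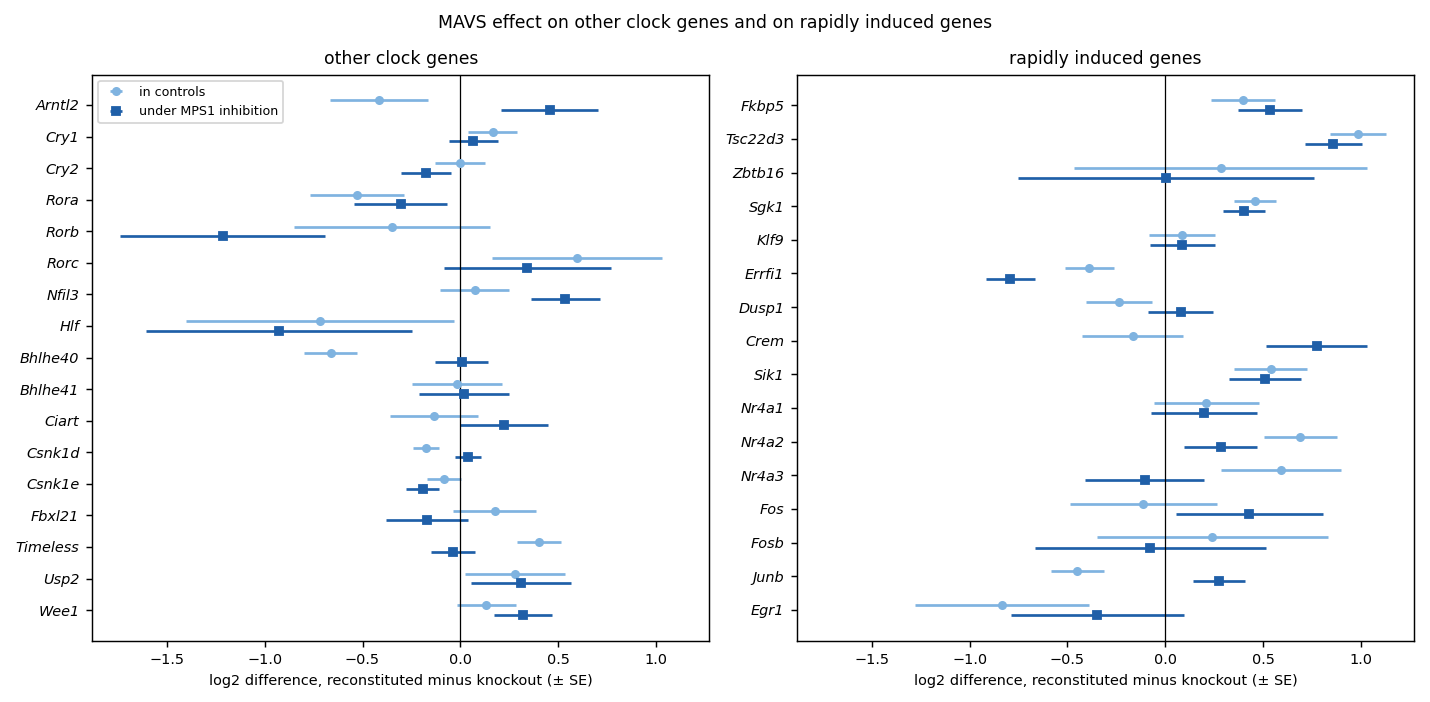
Fitted log2 differences with SE, reconstituted minus knockout, for 17 of the 18 other clock genes and the 16 rapidly induced genes, in controls (circles) and under the inhibitor (squares). Tsc22d3, Fkbp5, Sgk1 and Sik1 lie right of 0 in both, Errfi1 left of 0 in both, and Bhlhe40 is left of 0 only in controls.

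Cell type markers moved with genotype beside Per1 and Per2. T and NK cell markers (6 of 6 detected) summed to 12.4 to 30.2 CPM in knockout controls, 15.7 to 29.0 CPM in knockout inhibitor libraries, 34.5 to 60.0 CPM in reconstituted controls and 67.8 to 79.0 CPM in reconstituted inhibitor libraries. Much of these sums was Gzmb, with group means of 9.98, 10.3, 34.3 and 54.2 CPM in that order. With MAVS, 4 had higher and 2 lower fitted values in controls, and all 6 had higher ones under the inhibitor. In controls Cd3e had means of 1.93 CPM in knockout and 1.91 CPM in reconstituted tumours, and Cd3g 1.62 and 1.32 CPM. Fibroblast and pericyte markers summed to 5410 to 11000 CPM in knockout controls, 5020 to 9740 CPM in knockout inhibitor libraries, 5620 to 5980 CPM in reconstituted controls and 2100 to 6240 CPM in reconstituted inhibitor libraries. All 6 had lower fitted values with MAVS in both treatments, with median log2 differences of -0.55 in controls and -0.69 under the inhibitor. Those under the inhibitor include reconstituted inhibitor replicate 1, at 2100 CPM beside 6240 and 5220 CPM in its group, and are not given without it. Red blood cell markers summed to 49.4 to 237 CPM, 59.7 to 294 CPM, 32.5 to 53.5 CPM and 50.6 to 112 CPM in the same order, and all 5 had lower fitted values with MAVS (medians -1.85 and -1.25). Epithelial markers were 5470 to 6020 CPM in knockout libraries, 4730 to 4950 CPM in reconstituted controls and 5300 to 7590 CPM in reconstituted inhibitor libraries. Macrophage markers summed to 1010 to 1330 CPM in knockout controls and 844 to 1100 CPM in knockout inhibitor libraries. In reconstituted tumours they summed to 846 to 1060 CPM in controls and 1160 to 1220 CPM under the inhibitor. Endothelial markers summed to 164 to 182, 148 to 172, 157 to 202 and 125 to 168 CPM in that order of groups. All 5 had lower fitted values under the inhibitor in reconstituted tumours (median -0.58). Neutrophil markers spanned 27.5 to 52.1 CPM over all groups. Keratinocyte and skin markers spanned 6.99 to 14.4 CPM, with up to 2 of 5 at 0 counts, and adipocyte markers 0 to 4.03 CPM, with up to 5 of 5 at 0 counts. The part of these cell types in the clock gene values was not tested.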

How the data were processed

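TruSeq stranded mRNA libraries of 12 tumours were sequenced, per the labels' protocols. Trimmomatic, HISAT2, StringTie and the builds GRCm38 and mm10 are named in the submitters' processing notes, without versions or roles. The authors deposited raw counts per gene, and the handling of strand and of reads shared between genes was not given in the sources used here. Genes were filtered with filterByExpr, scaled with TMM factors (0.920 to 1.03) and fitted with 1 mean per group over all 12 libraries in edgeR 4.0.16 (R 4.3.3, quasi-likelihood F-test). Benjamini-Hochberg adjustment ran over all 17885 genes and calls were made below 0.05. The fit was tested on simulated data. CPM values are counts divided by the library total times its TMM factor, and 3 counts equal 0.0434 to 0.0566 CPM. DESeq2 1.42.0, limma 3.58.1 (voom), other scalings and filters, a replicate block and leaving out each library were alternatives. The members and lists were chosen with earlier results of these data known. All members were named, with called genes of the other 2 lists (at most 4 per comparison) or else the 2 of largest size. A gene of the list of other clock genes is counted but not reported singly here. For likeness the 5 genes of highest r and a mean log2 CPM not below 1 were taken, without predicted genes. Gene positions and promoters are from RefSeq (GRCm38.p6), strands of overlapping genes from GENCODE.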

Additional observations from a re-analysis of the deposited data

How the results depend on the processing

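The counts of called members were the same under every alternative run, except under DESeq2 (1 for the MAVS effect under the inhibitor, 2 for the inhibitor effect in reconstituted tumours) and when a library was dropped (0 to 2 in both comparisons, 2 without reconstituted inhibitor replicate 3 and, for the MAVS effect, 1 without knockout control replicate 3). With the replicate block 0 members were called in each of the 4 tested comparisons and 43 against 116 genes in all for the MAVS effect under the inhibitor. Same-numbered libraries of different groups correlated at -0.11 to 0.31 in their deviations, 9 of 18 pairs above 0.1. Differently numbered libraries correlated at -0.37 to 0.34, with 7 of 36 pairs above 0.1. Of 12 libraries, 6 correlated best with their own number. The labels name no pairs, and the main fit did not take the numbers as pairs. Whether the numbers mark a shared batch was not tested.

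Per1 kept its direction for both MAVS effects in every fit (1.20 to 1.56 in controls and 0.61 to 0.83 under the inhibitor), as did Per2 (0.69 to 1.03 and 0.32 to 0.69). Over all genes the MAVS comparison under the inhibitor gave 1226 calls with DESeq2 (726 higher and 500 lower, against 93 and 23), 64 with only the 2 groups compared and 0 to 2816 when a library was dropped. The inhibitor effect in reconstituted tumours gave 3621 with DESeq2 and 5683 without reconstituted inhibitor replicate 3, against 0. Counts for the 2 other lists were added after seeing the data.

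Log2 differences near 0 changed sign, and the cause was not tested. With library totals only, Nr1d1 was -0.0196 and Tef -0.0349 for the MAVS effect under the inhibitor (Tef -0.0097 with upper-quartile factors), Nr1d1 was -0.0142 for the inhibitor effect in reconstituted tumours (Tef 0.0043 with limma-voom), and Per3 was -0.0088 for the average. With single libraries left out, the MAVS effect under the inhibitor ran from -0.16 to 0.20 for Nr1d1, -0.23 to 0.0412 for Per3 and -0.0584 to 0.0752 for Tef. The inhibitor effect in knockout tumours ran from -0.12 to 0.0832 for Clock, -0.14 to 0.0128 for Dbp, -0.073 to 0.0225 for Nr1d2, -0.12 to 0.24 for Per2 and -0.0767 to 0.23 for Per3. In reconstituted tumours it ran from -0.14 to 0.23 for Nr1d1, -0.12 to 0.0422 for Per3 and -0.0759 to 0.12 for Tef, and on average from -0.0928 to 0.0211 for Arntl, -0.11 to 0.0755 for Nr1d1, -0.0608 to 0.0938 for Per3 and -0.075 to 0.0231 for Tef. Npas2 had no value with a minimum mean of 1 CPM. Depth limits Npas2, with 8 to 72 counts per library.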
